A study of Homo sapiens with 12 samples.

Results

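The response of p42 cells to tunicamycin was described from 2 lists of open chromatin regions measured by ATAC-seq, an assay in which the Tn5 transposase inserts sequencing adaptors into accessible DNA. One list came from p42 cells kept in DMSO and the other from p42 cells treated with tunicamycin (Tm). Peaks of both lists on chromosomes 1 to 22 and X were merged wherever they overlapped by at least 1 bp, which gave 287494 regions, against 355051 regions for all 6 lists of the study. A region was called gained when it held a peak in Tm alone, lost when it held a peak in DMSO alone, and shared when both lists had a peak there.

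The cells were KO-52, an established acute myeloid leukaemia line with biallelic CEBPA mutations, transduced to carry the p42 isoform of C/EBPα, and the study also measured p30 cells and empty vector (EV) cells. Tunicamycin was given at 2 µg/mL for 8 h, DMSO was the control, and each library was made from 50000 nuclei. The study's methods describe stable p42-ERT2 and p30-ERT2 lines sorted for GFP and exposed to 4-hydroxytamoxifen, empty vector controls included, without stating in so many words that the ATAC-seq libraries came from those lines. Each condition had 2 replicates that were pooled before peaks were called, so 1 list stood for each condition, there was no measure of replicate spread, and no test between DMSO and Tm was possible.

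C/EBPα is a bZIP transcription factor that drives granulocytic differentiation. Its full-length form is p42, and p30 is the shorter form that lacks the N-terminal part of the transactivation region. Tunicamycin blocks the first step of N-linked glycosylation, so unfolded glycoproteins build up in the endoplasmic reticulum (ER) and the unfolded protein response starts. Its sensors are PERK (encoded by EIF2AK3), IRE1 (ERN1) and ATF6, and the transcription factors downstream of them are ATF4, XBP1 and the cleaved form of ATF6. ATF4 binds composite C/EBP–ATF elements, often as a dimer with a C/EBP protein, and its known targets include genes of amino acid supply, tRNA charging and redox balance.

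The sequences below carry an element that was more frequent in the strongest gained regions than in all regions. They are hg38 windows around the ATF4 element TGATGCAA, which was searched on both strands within 100 bp of each region's summit. The first 6 are from regions gained in p42 cells with a −log10 q of 10 or more, the next 4 from shared regions that rose in rank or, at HSPA5, in tags, and each is written 5′ to 3′ on the strand of the match, with the element in capitals.
EYS intron, chr6:64985109-64985156, plus strand: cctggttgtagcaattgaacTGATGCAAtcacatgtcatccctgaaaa
near DCUN1D5, chr11:103028492-103028539, plus strand: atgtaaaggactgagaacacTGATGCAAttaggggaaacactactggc
NFE2L1 promoter, chr17:48055910-48055957, plus strand: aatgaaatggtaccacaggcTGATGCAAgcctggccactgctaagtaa
ZFAND3 intron, chr6:37973439-37973486, plus strand: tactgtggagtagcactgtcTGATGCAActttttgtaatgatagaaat
AIMP2, chr7:6016172-6016219, minus strand: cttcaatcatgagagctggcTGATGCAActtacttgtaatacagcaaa
TFEB promoter, chr6:41733048-41733095, plus strand: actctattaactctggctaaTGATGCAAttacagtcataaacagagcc
CLIP1 intron, chr12:122406794-122406841, plus strand: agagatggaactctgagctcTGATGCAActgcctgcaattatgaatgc
WARS1 promoter, chr14:100375586-100375633, minus strand: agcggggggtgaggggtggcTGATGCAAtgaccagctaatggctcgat
NFIL3 intron, chr9:91419441-91419488, minus strand: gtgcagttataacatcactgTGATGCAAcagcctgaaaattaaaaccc
upstream of HSPA5, chr9:125243450-125243497, minus strand: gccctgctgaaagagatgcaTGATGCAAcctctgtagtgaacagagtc

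The DMSO and Tm lists differed at many weak regions and at few strong ones. Of the 287494 regions, 35413 were gained (12.3%), 79428 were lost (27.6%) and 172653 were shared (60.1%), which left 17.5% fewer regions in Tm than in DMSO. The depth of the lists moved in the same direction, from an estimated 29980000 tags in DMSO to 25440000 in Tm. When the 220835 strongest peaks of each list were compared, so that both lists had the same number of peaks, 42847 regions were gained (16.3%) and 54363 were lost (20.7%), a net fall of 5.24%. Part of the excess of losses thus went with list length. With equal numbers of peaks the net change arises only from how many peaks merged into a region. The 220835 DMSO peaks fell in 219606 regions and the Tm peaks in fewer, so this fall is no count of lost sites. How much of the excess of losses went with depth was not tested.

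Gained and lost regions were alike in form and sat at the low end of the lists. The median width was 70 bp for gained, 82 bp for lost and 207 bp for shared regions. The median summit height, recovered from the deposited values as a whole number of tags (tags are the sequenced reads that the peak caller stacks over a position), was 6 tags for gained and 6 for lost regions, against 14 in DMSO and 13 in Tm for shared ones. Each region was also given a percentile in its list by the p-value of its strongest peak. The median was 21.3 for gained and 21.1 for lost regions. Promoters, taken as 1000 bp on each side of an annotated start site, held 13.1% of gained (95% Wilson interval 12.7 to 13.4) and 11.2% of lost regions (11 to 11.4), against 20.8% of shared ones (20.6 to 21). Introns held 49.6% of gained and 50.5% of lost regions. Intervals here and below cover the counting of regions alone. In a bulk sample, a region open in fewer cells and a region less open in every cell cannot be told apart.

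The myeloid identity of the cells was visible in the list. All 10 myeloid genes checked (SPI1, CD33, MPO, CSF3R, PTPRC, KIT, LYZ, RUNX1, CEBPA and MYB) had a promoter region with a peak in both p42 lists, at DMSO percentiles of 76.8 to 94.8. Of 12 genes of other cell types, 6 also had a shared promoter region and 3 (HBB, GATA1 and NEUROD1) had no promoter peak in either list.

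Few strong regions appeared or disappeared. With a −log10 q of 10 or more required in the list that held the region, 95 regions were gained (0.033% of all regions) and 632 were lost (0.22%). The strongest gained region lay 8332 bp from the start site of PRDM7 and had 18 tags in Tm. It was followed by introns of C4orf47 (17 tags) and SLC22A4 (17 tags), a carnitine and ergothioneine transporter, and by an intron of EYS (16 tags). Next were a promoter of a non-coding transcript 689167 bp from the start of MYC (17 tags) and a region near DCUN1D5 (16 tags). A promoter region 635 bp from a start site of CSNK1D, a casein kinase gene (27 tags), also overlapped SLC16A3, the gene of a lactate exporter. A region near MEX3B (16 tags) completed the first 8. These heights were between 16 and 27 tags in a list whose tallest summit had 109. Of the first 8, 4 carried the ATF4 element. Several of the first 8 had a DMSO peak in the other lines. The region near PRDM7 had 13 and 14 tags in DMSO and Tm in p30 cells, and 11 and 14 in EV cells. C4orf47 had 11 and 9 in p30 and 7 and 9 in EV cells, and SLC22A4 6 and 10, and 7 and 9. The EYS, DCUN1D5 and CSNK1D regions had no DMSO peak in those lines.

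The strongest lost regions were of a like height. The first was an intron of MCU, the pore of the mitochondrial calcium uniporter, with 20 tags in DMSO. Next came introns of CAMK1D (17 tags) and ERCC6L2 (17 tags), a region near H3-5 (17 tags), and introns of CELF2 (19 tags), PTPN13 (17 tags) and TFDP1 (29 tags), the last encoding the partner of E2F factors. A region near CSTF3 (18 tags) was also among the first 8. The ATF4 element was in 5 of the 632 strong lost regions (0.791%, 0.338 to 1.84).

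The ATF4 element was more frequent in the strong gained regions than in all regions. It was present in 12 of the 95, or 12.6% (7.38 to 20.8), against 1.38% (1.34 to 1.43) of all 287494 regions. The share at this cutoff was computed after seeing the data, and at a −log10 q of 8 or more it was 4.29% (23 of 536). Over all gained regions, however, the share was 1.6% (1.48 to 1.74) and over all lost regions 1.38% (1.3 to 1.46). The element was thus concentrated in the top of the gained set. By strength, the share was 1.46% at a −log10 q of 1 to 2, 1.66% at 6 to 8, 2.49% at 8 to 10 and 12.6% at 10 or more, while in lost regions it stayed between 0.791 and 1.54% over the same bins. By position in the list, 1.47% of the gained regions at percentiles 0 to 20 of the Tm list carried it and 16 of 225 (7.11%) of those at percentiles 60 to 80.

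**Figure D1:**
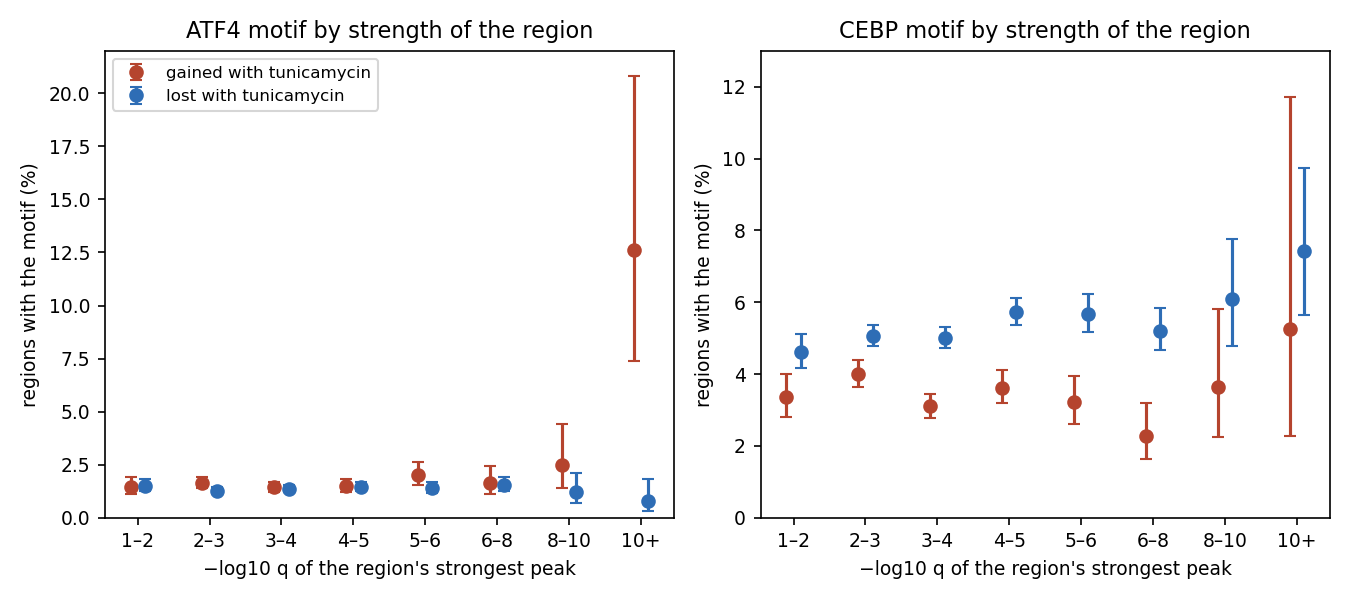
Share of gained and lost regions of p42 cells with the ATF4 element (left) or the CEBP element (right), in percent, by the −log10 q of the region's strongest peak; points are shares and bars 95% Wilson intervals. The ATF4 share of gained regions reached 12.6% in the strongest bin against 0.791% of lost regions, and the CEBP share was higher in lost than in gained regions in every bin.

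The 12 strong gained regions with the ATF4 element were followed through the lists of the other cells. In p42 cells they had 12 to 23 tags in Tm and no peak in DMSO. The EYS intron region (chr6:64985087-64985354) had no peak in DMSO in any of the 3 lines and 16, 15 and 12 tags in Tm in p42, p30 and EV cells. The NFE2L1 promoter region (chr17:48055839-48056055), 25 bp from an annotated start site of a transcription factor that controls proteasome genes, showed the same arrangement with 16, 12 and 9 tags. The region near DCUN1D5 did so with 16, 13 and 13 tags. At these loci the presence of a Tm peak and the absence of a DMSO peak were seen in all 3 lines, each with its own DMSO list.

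The regions in ZFAND3 (14, 10 and 6 tags in Tm in p42, p30 and EV cells) and near DLK1 (13, 4 and 7) had the same arrangement. So did the AIMP2 region described below, while the others varied more between lines. The region in a promoter of TFEB (chr6:41732909-41733055), a regulator of lysosome and autophagy genes, had 23 tags in Tm alone in p42 cells, and went from 14 to 18 tags in p30 cells and from 11 to 19 in EV cells. The region in AIMP2 (chr7:6016095-6016210), a scaffold of the multi-tRNA synthetase complex, had no DMSO peak in any line and 12, 10 and 8 tags in Tm. It lay 6844 bp from the nearest start site of a protein-coding gene and counted as promoter through another annotated transcript. The exonic region in CHD2 (chr15:93027480-93027681), with 20 tags in p42 cells, had no peak in the other 4 lists.

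Counted over all 12, p30 cells had 7 gained, 0 lost, 4 with a peak in both lists and 1 with none. EV cells had 7 gained, 0 lost, 3 with both and 2 with none. All 4 and all 3 of the regions with both peaks ranked higher in Tm, by a median of 40.3 and 44.6 percentile points. The 83 strong gained regions without the element showed 12 gained, 13 lost and 40 with both peaks in p30 cells, of which 19 ranked higher and 21 lower in Tm. In EV cells the 83 showed 9 gained, 14 lost and 41 with both, of which 25 ranked higher and 16 lower, with a median difference of 7.9 points. The same element was in 14.5% (9.76 to 20.9) of the 152 strong gained regions of p30 cells and in 8.33% (5.79 to 11.9) of the 324 of EV cells. The difference between the lines was not tested, since each had 1 pooled list per condition.

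**Figure D2:**
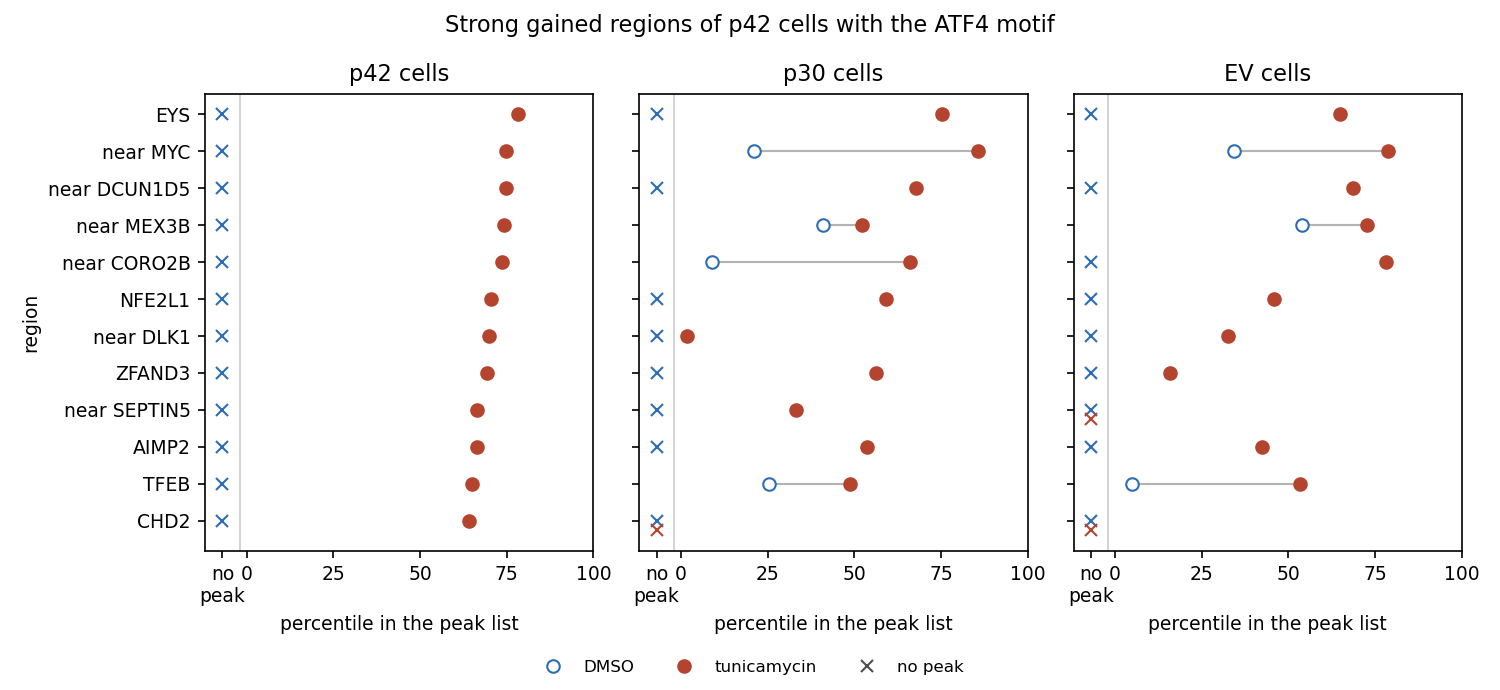
Percentile, within each peak list, of the 12 strong regions gained in p42 cells that carry the ATF4 element, in p42, p30 and EV cells; open circles are DMSO, filled circles Tm, and crosses mark lists with no peak. In p30 and EV cells 7 of the 12 had a peak in Tm alone, and every region with both peaks ranked higher in Tm.

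The distance from the element to the summit varied. It was 20 bp or less in 6 of the 12 strong gained regions (50%, 25.4 to 74.6). This held for 28% (24.5 to 31.8) of the 568 gained regions with the element. Of the 3980 regions that held it anywhere in the window the share was 23.9% (22.6 to 25.3). The base after the element was a pyrimidine in 9 of the 12 (75%, 46.8 to 91.1), against 65.3% of the 568 and 58.2% of all 3980. Both intervals of the 12 include the shares of the 568. The EYS and NFE2L1 windows printed above had the match 7.5 and 6.5 bp from the summit, and the TFEB window 66.5 bp.

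Shared regions kept most of their order. Their ranks in DMSO and Tm had a Spearman correlation of 0.86 over 172653 regions, given as a description since the regions of a list share its library and depth. The shift in rank (Tm percentile minus DMSO percentile, among shared regions) ran from −26.8 at the 5th to 25.4 at the 95th percentile of regions. Here rose and fell state only which of the values in the 2 lists was higher. The shift was 10 points or more upwards in 21.8% and downwards in 22.3%. Of the 99064 shared regions in the upper part of either list (at or above the 50th percentile), 1272 rose by 40 points or more (1.28%) and 1515 fell by as much (1.53%).

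The largest rises were at weak DMSO regions. An intronic region of CLIP1 (chr12:122406773-122406907), a microtubule plus-end protein, went from 4 to 16 tags and rose by 72.1 points. It also had no DMSO peak in the other lines, and 13 tags in p30 and 14 in EV cells after Tm. The next were introns of MSRA (7 to 23 tags), NAV2 (5 to 16) and RGS17 (5 to 15), and regions near MAS1L (6 to 17), MID1IP1 (6 to 17), RAB2A (6 to 17) and HMHB1 (5 to 15). Several of the 8 moved the other way elsewhere. MSRA went from 13 to 12 tags in p30 cells and from 10 to 8 in EV cells. The regions near MAS1L (11 to 9) and RAB2A (17 to 14) were lower in Tm in p30 cells, and NAV2 (8 to 5), RGS17 (14 to 10) and the region near MID1IP1 (9 to 7) in EV cells. The ATF4 element was in CLIP1, MSRA and the HMHB1 region.

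The largest falls included promoters. The ANXA6 promoter region, 138 bp from the start site of this annexin gene, went from 21 to 4 tags, a shift of −78.6 points, and had no peak in the other 4 lists. An intronic region of ANKRD13A went from 21 to 5 tags, the HNRNPC promoter region from 22 to 6, and an intronic region of CEP63, a centrosome protein, from 22 to 6. Regions near IER3 (22 to 6), SNTB1 (26 to 7), MPHOSPH6 (17 to 4) and TNPO1 (17 to 4) were the others. None of the 8 carried the ATF4 element. The CEP63 region also went from 16 to 6 tags in p30 cells and from 12 to 9 in EV cells.

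**Figure D3:**
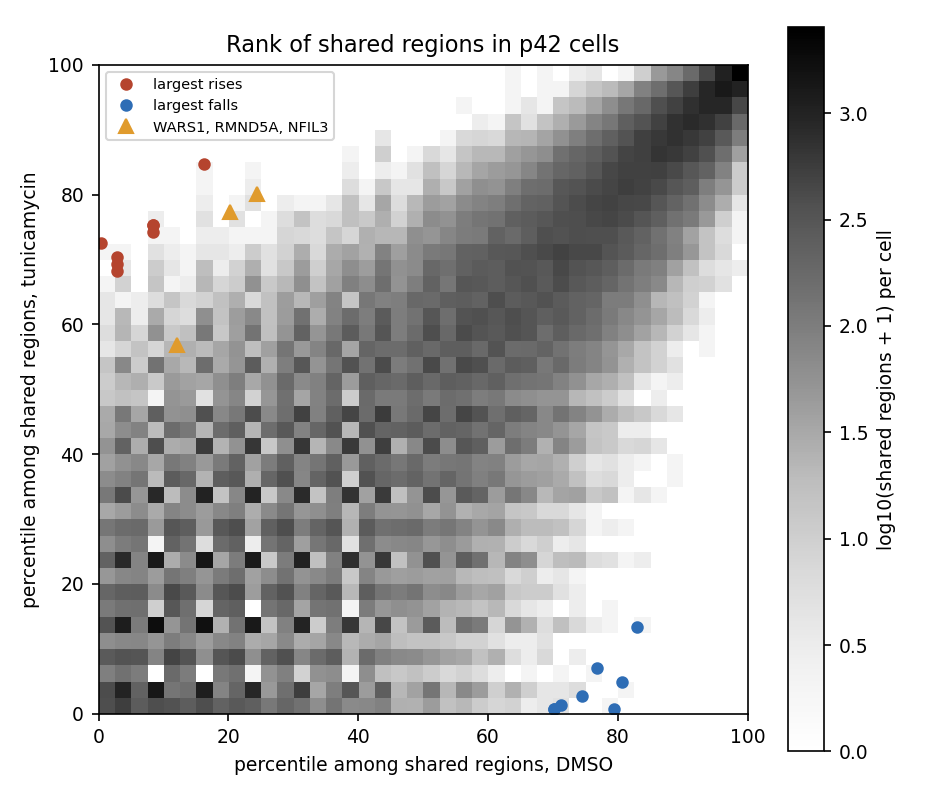
Percentile of the shared regions of p42 cells among themselves in DMSO (x axis) and Tm (y axis); grey is log10 of the number of regions in each square of 2.5 by 2.5 points. Red and blue points are the 8 largest rises and falls, with shifts from −78.6 at ANXA6 to 72.1 at CLIP1, and triangles the WARS1, RMND5A and NFIL3 regions with the ATF4 element.

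The share of regions with the ATF4 element was higher at large shifts in rank, in either direction. It was in 16 of the 332 regions that rose by 50 points or more (4.82%, 2.99 to 7.68) and in 2.34% of those that rose by 40 to 50. It was in 0.982% of the regions that rose by 0 to 10 points. For falls of 50 points or more it was in 12 of 405 (2.96%, 1.7 to 5.11). The intervals for large rises and large falls overlap, and the difference between them was not tested. Among shared regions the share also varied with rank itself, from 1.56% at percentiles 0 to 20 of the Tm list to 0.904% at 80 to 100. How much of the contrast between small and large shifts went with rank was not tested. Over all 2316 shared regions with the element the median shift was 0.02 points, against 0.01 without it; the median region with this sequence kept its rank.

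The 38 regions with the element that rose by 40 points or more were mixed in the other lines. In p30 cells 12 had a peak in Tm alone, 1 in DMSO alone, 18 in both and 7 in neither, and of the 18 with both, 9 ranked higher and 9 lower in Tm. In EV cells 14 had a peak in Tm alone, 2 in DMSO alone, 15 in both (11 higher and 4 lower) and 7 in neither. Of the 1234 regions without the element that rose as much, 6.4% had a peak in Tm alone in p30 cells and 10.7% in EV cells, against 31.6% and 36.8% of the 38.

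Promoter regions made up 4 of the 38. The WARS1 region (chr14:100375468-100375772), 32 bp from a start site of the tryptophanyl-tRNA synthetase gene, went from 16 to 36 tags in p42 cells. It went from 13 to 39 tags in p30 and from 16 to 37 in EV cells. The Tm height was the larger in every line. Another lay 58 bp from an annotated start of RMND5A, a ubiquitin ligase subunit (chr2:86748091-86748281), and went from 8 to 20, 5 to 19 and 9 to 20 tags in p42, p30 and EV cells. The main RMND5A promoter, where the highest peak of the gene lay, had 49 and 45 tags in p42 cells. The other promoter regions did not share this arrangement. The one of PDE4D, a phosphodiesterase, went from 8 to 16 tags in p42 cells, from 16 to 11 in p30 cells and from 21 to 21 in EV cells, and the one of ZBTB38 (7 to 12 tags) had no peak in the other 4 lists.

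Some distal regions were higher in Tm in all 3 lines and others were not. An intron of NFIL3 (chr9:91419353-91419485), a bZIP repressor gene, went from 13 to 21 tags in p42 cells, from 10 to 17 in p30 cells and from 10 to 16 in EV cells, while the strongest NFIL3 promoter region of p42 cells went from 35 to 26. A region 132696 bp from the start of VEGFA went from 8 to 16 tags, and had 14 and 14 tags in Tm alone in the other lines. Those near TRIB2 (6 to 14), NFAT5 (7 to 15) and HMHB1 (5 to 15) rose too. Lower values in Tm were found in p30 cells near EIF2S3B (14 to 8) and in introns of DLG2 (8 to 4) and PRPS2 (15 to 11). These regions had gone from 6 to 11, 6 to 11 and 11 to 21 tags in p42 cells. In EV cells the EIF2S3B and DLG2 regions had 7 and 4 tags in DMSO and no peak in Tm, and PRPS2 went from 12 to 11. Tag heights are raw, and the regions were chosen for their rise in p42 cells. The Tm list was the shallower of the pair in p42 and p30 cells and the deeper in EV cells.

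The CEBP element showed the reverse pattern. TTGCNCAA, searched on both strands, was in 3.46% (3.28 to 3.66) of gained and 5.22% (5.07 to 5.38) of lost regions, against 4.49% (4.42 to 4.57) of all. The ATF4, CEBP and CEBP:AP1 elements share the letters GCAA, so matches can overlap. The CEBP element was in 47 of the 632 strong lost regions (7.44%, 5.64 to 9.75). It was in 5 of the 95 strong gained ones (5.26%, 2.27 to 11.7), and these intervals overlap. By rank shift the element was in 6.27% (5.16 to 7.61) of the regions that fell by 40 points or more and in 3.69% (2.79 to 4.88) of those that rose by as much. At 50 points or more the shares were 8.15% (5.86 to 11.2) for falls and 4.52% (2.76 to 7.32) for rises, with overlapping intervals. Shared regions with the element had a median shift of −1.38 points, against 0.08 without it. The composite CEBP:AP1 element TGTTGCAA, in which the CEBP half-site is joined to an AP-1 half-site, was in 1.06% (0.955 to 1.17) of gained and 1.59% (1.51 to 1.68) of lost regions, with a median shift of −1.82 points where shared.

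In the other lines these shares were closer to each other. In p30 cells the CEBP element was in 3.07% (2.89 to 3.26) of gained and 2.9% (2.77 to 3.04) of lost regions, and in EV cells in 2.76% (2.61 to 2.91) and 2.92% (2.76 to 3.1). The regions themselves differed too: of the 47 strong lost regions of p42 cells with the element, 32 (68.1%) had no peak in either p30 list and 35 (74.5%) had none in either EV list. Of the 585 strong lost regions without it, 202 (34.5%) and 222 (37.9%) were absent there. Among the strongest of the 47 were introns of SPSB4 and DPT, with 16 and 15 tags in DMSO, and neither had a peak in p30 or EV cells. Their elements, in capitals, read as follows on the plus strand of hg38, the element being TTGCNCAA or its reverse complement.
SPSB4 intron, chr3:141116082-141116129: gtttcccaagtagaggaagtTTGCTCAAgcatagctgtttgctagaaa
DPT intron, chr1:168698795-168698842: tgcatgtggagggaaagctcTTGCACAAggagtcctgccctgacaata

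Other elements moved less or with the strength of the region. The AP-1 element TGANTCA was in 16.6% (14.6 to 18.7) of the regions that rose by 40 points or more and 11% (9.48 to 12.6) of those that fell by as much, against 11.9% of all regions. The PU.1 element GAGGAAGT was in 11.2% (9.55 to 13) and 7.92% (6.66 to 9.39) of them, against 7.41% of all. The element of CTCF, the insulator protein, AGNGGGCGC, was in 2.24% of shared, 0.387% of gained and 0.544% of lost regions. The split was not particular to CTCF. The SP1 element GGGCGGGG was in 4.66%, 1.43% and 1.36% of them, and the NRF1 element GCGCATGCG in 0.236%, 0.0169% and 0.0214%. Shared regions were also the taller ones and more often at promoters, as given above. The XBP1/ATF6 element TGACGTGG was in 0.172% (0.134 to 0.221) of gained and 0.214% (0.184 to 0.249) of lost regions, and in 1 of the 95 strong gained ones. The ER stress response element, CCAAT and CCACG separated by 9 bases, was in 34 regions in all, of which 30 were shared, 2 gained and 2 lost.

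Around genes of ER chaperones gained regions took a larger share than around protein-coding genes in general. Within the 22 genes of this list and 10 kb on each side there were 221 regions, of which 40 were gained (18.1%, 13.6 to 23.7) and 39 were lost (17.6%, 13.2 to 23.2). Around all protein-coding genes the shares were 11% gained and 24.7% lost. The gained share was the highest of the 12 gene lists in p42 cells and was taken up after the values were seen. Of the 40 gained regions, 9 were gained and 8 lost in p30 cells (22.5% and 20%, against 10.1% and 14% around all genes). In EV cells 8 were gained and 2 lost (20% and 5%, against 13% and 10%). SIL1, the largest gene of the list, held 11 of the 40, and without it 29 of 167 regions were gained (17.4%, 12.4 to 23.8). The share in p30 cells was 14.8% (10.5 to 20.4) against 12.4% around all genes, and in EV cells 18.4% (13.6 to 24.5) against 17.7%. At promoters, 7 of the 22 genes had a gained region (HSP90B1, CANX, CRELD2, MANF, SIL1, DNAJC10 and SELENOK), or 31.8%, against 3059 of 19962 protein-coding genes (15.3%). A lost promoter region was found at 4 of the 22 (HSP90B1, PDIA6, SDF2L1 and SIL1), or 18.2%, against 24.8% of all genes.

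The main promoters of the chaperone genes were already open. HSPA5, which encodes BiP, the abundant ER chaperone, had 51 tags at its promoter in DMSO and 46 in Tm, at percentiles of 98.2 and 91.4. Over the 22 genes the strongest shared promoter region had a median shift of −0.63 points, against 0.17 for 15752 protein-coding genes. Of these 15752, 1257 rose by 10 points or more (7.98%) and 1134 fell by as much (7.2%). ERO1A, an ER oxidoreductase, rose by 11.7 points (28 to 32 tags) and TXNDC5, a protein disulfide isomerase, by 11.3 (35 to 41). CALR, the lectin chaperone calreticulin, fell by 10.7 (54 to 43).

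At HSPA5 the regions outside the promoter, either at or past the end of the gene or upstream of it, changed more in tags than the promoter. A region 500 bp beyond the end of the gene (chr9:125234157-125234352) was gained with 20 tags, and had 10 tags in p30 and 14 in EV cells, in Tm alone in both. A region over the end of the gene (chr9:125234776-125235421) went from 8 to 26 tags in p42 cells, from none to 16 in p30 cells and from 5 to 17 in EV cells. A region 867 bp past the end (chr9:125233730-125233985) went from 9 to 21, 5 to 14 and 8 to 18 tags. A region 2000 bp upstream (chr9:125243383-125243539), the one with the ATF4 element printed above, went from 13 to 20 tags in p42 cells and had 17 and 21 tags in Tm alone in p30 and EV cells. All 4 of these regions outside the HSPA5 promoter were thus higher in Tm in all 3 lines. The promoter itself was lower in p42 cells and in p30 cells (54 to 51) and higher in EV cells (46 to 50).

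Single regions around other ER stress genes were also higher in Tm, while their neighbours were not all so. Past the end of HERPUD1, an ERAD scaffold gene, a region at a distance of 1896 bp (chr16:56946761-56947046) was gained with 19 tags, and had 11 and 13 tags in Tm alone in p30 and EV cells. A region 4506 bp upstream of SDF2L1, a partner of BiP (chr22:21637687-21637795), was gained with 18 tags and had 12 and 12 in Tm alone. In an intron of TRIB3, a pseudokinase gene and ATF4 target (chr20:365324-365388), a region was gained with 12 tags and had 8 and 12 in Tm alone. An intronic region of GANAB, which encodes the catalytic subunit of glucosidase II, went from 7 to 16 tags in p42 cells, from 15 to 17 in p30 cells and from 9 to 20 in EV cells. The promoters of HERPUD1 and SDF2L1 had 47 and 40, and 44 and 45 tags in DMSO and Tm in p42 cells. The HERPUD1 promoter region, lower in Tm, carried the ATF4 element. It went from 51 to 45 tags in p30 cells and from 42 to 51 in EV cells. The gained HERPUD1, SDF2L1 and TRIB3 regions did not carry the element. An intronic TRIB3 region with the element went from 18 to 21 tags in p42 cells. Other regions of these loci were lower in Tm in p42 cells. Around HERPUD1, one 7303 bp upstream went from 8 to 5 tags and one 6495 bp downstream from 32 to 27. Around SDF2L1, one 9499 bp upstream went from 20 to 17 and one 2518 bp downstream from 33 to 29. Around TRIB3, an intronic region with 10 tags in DMSO was lost and one 9764 bp downstream went from 21 to 15. The regions around HSPA5, HERPUD1, SDF2L1, TRIB3 and GANAB were chosen for description after their values were seen.

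**Figure D4:**
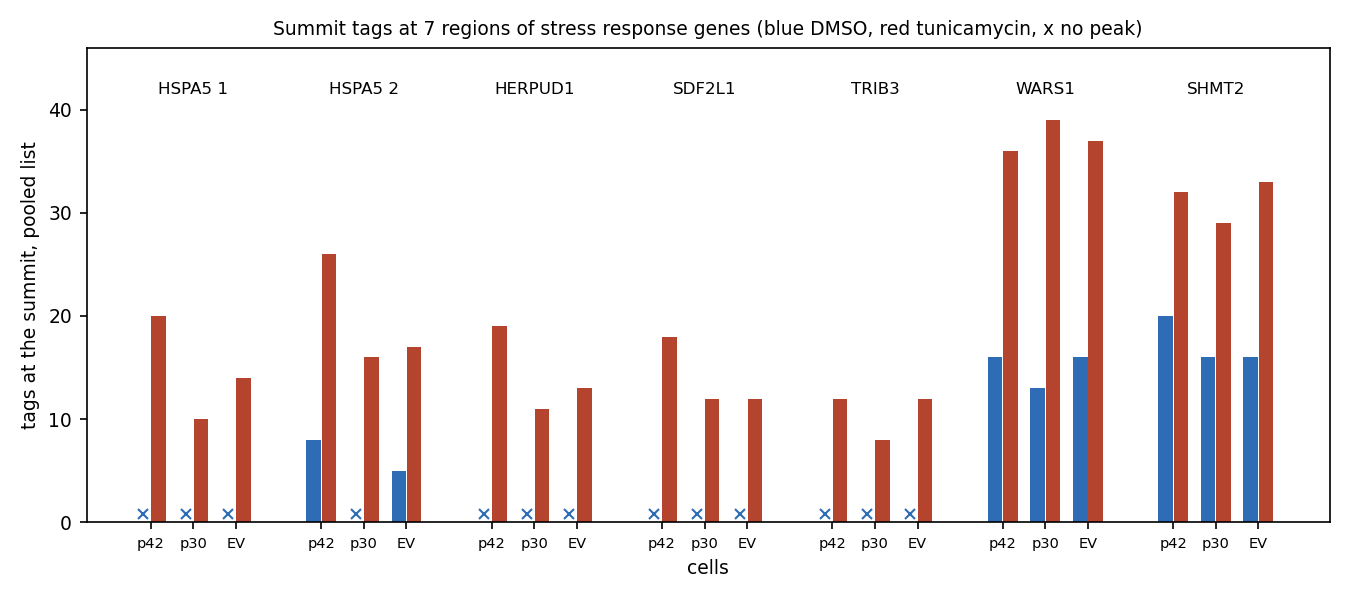
Tags at the summit in DMSO (blue) and Tm (red) in the pooled lists of p42, p30 and EV cells at 7 regions of stress response genes, chosen after their values were seen; crosses mark lists with no peak, and each bar is 1 list with no error. All 7 were higher in Tm in all 3 lines, as at WARS1 with 16 and 36, 13 and 39, and 16 and 37 tags.

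Genes of the sensors and transcription factors of the response changed little at their main promoters. Of the 13 (ERN1, EIF2AK3, ATF6, ATF6B, XBP1, ATF4, DDIT3, CREB3L2, MBTPS1, MBTPS2, NFE2L2, EIF2S1 and EIF2AK4), all had a shared promoter region. The median shift was −1.42 points, 0 rose by 10 points or more and 1 fell, CREB3L2, an ER-anchored bZIP factor, by 13.5 points (50 to 35 tags). ATF4 itself had 43 and 44 tags and DDIT3, the gene of CHOP, 49 and 49. Weak gained regions lay at the promoters of 5 genes (ERN1, EIF2AK3, XBP1, ATF4 and MBTPS1) and lost regions at 4 (EIF2AK3, ATF6B, MBTPS1 and EIF2AK4), or 38.5% and 30.8%, against 15.3% and 24.8% of all protein-coding genes.

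The 20 ATF4 effector genes gave a like picture. They were DDIT3, DDIT4, TRIB3, CHAC1, SESN2, VLDLR, ATF3, ATF5, CEBPB, CEBPG, PPP1R15A, PPP1R15B, GADD45A, NUPR1, VEGFA, FGF21, STC2, CDKN1A, GDF15 and KLHL24, and 18 of them had a shared promoter region, with a median shift of −0.39 points. VLDLR, a lipoprotein receptor, rose by 13.3 points (22 to 26 tags) and CDKN1A, the cell cycle inhibitor p21, by 12.2 (30 to 33), and 0 fell by as much. CHAC1, a glutathione-degrading enzyme, had the lowest shift, −6.8 points (37 to 30 tags). ATF3 and GDF15 had a gained and VLDLR a lost promoter region. Around these genes 12.3% of 146 regions were gained (7.94 to 18.6) and 13.7% lost (9.05 to 20.2), against 11% and 24.7% around all protein-coding genes.

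In the list of 30 genes of amino acid supply and tRNA charging, SHMT2 stood out. Its promoter region, at a gene of mitochondrial serine and glycine metabolism, went from 20 to 32 tags, a shift of 32.1 points, and from 16 to 29 and 16 to 33 tags in p30 and EV cells. PYCR1, the last enzyme of proline synthesis, rose by 10.7 points (25 to 26 tags), and 0 of 29 genes fell by 10 points or more. The other promoters moved less, with a median shift over the list of 0.39. The higher WARS1 region described above was not the strongest of that gene and so did not enter this count. A further WARS1 promoter region with the ATF4 element (chr14:100373803-100373995) went from 23 to 26 tags in p42 cells. It had 13 tags in DMSO alone in p30 cells and 13 in Tm alone in EV cells. Gained promoter regions were at ASNS, ALDH18A1, SLC38A2, AARS1, GARS1 and MARS1 (20% of the list, against 15.3% of all genes) and lost ones at PHGDH, SHMT2, PYCR1, AARS1, IARS1, LARS1, YARS1 and CARS1 (26.7%, against 24.8%).

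Genes that act in ER-associated degradation, translocation and N-glycosylation changed in few places. Of 27 genes of degradation and translocation, UBE2J1, a ubiquitin-conjugating enzyme, rose by 11.7 points (37 to 43 tags) and SSR4, a translocon-associated subunit, fell by 12.4 (47 to 31). Of 34 N-glycosylation genes with a shared promoter region, DPM1, of dolichol-phosphate mannose synthesis, rose by 10.1 (25 to 27) and 0 fell by 10 or more. The median shifts of the lists were −0.74 and 0.43 points. Gained promoter regions were at HERPUD1 and SSR3, and at ALG3, ALG5, STT3B, DDOST, MOGS and MAN1A1. Lost ones were at SEC61A1 and SSR1, and at ALG13, ALG1, ALG5, ALG6, ALG8, DDOST, MAGT1 and UAP1.

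Among myeloid maturation genes the share of promoters that rose in rank was above that of all genes. Of 27 with a shared promoter region, 7 rose by 10 points or more (25.9%, against 7.98% of all genes) and 2 fell (7.41%). The 7 were ELANE, S100A8, LTF, LCN2, CD14, FCGR1A and CYBB, which encode granule proteins, receptors and a subunit of the phagocyte oxidase. LCN2 rose by 21.1 points with 13 and 16 tags and CYBB by 16.1 with 17 and 21, so the heights differed by few tags. In p30 cells LCN2 went from the 52.9 to the 46.9 percentile and CYBB from 76.8 to 63.4. S100A9, of the calprotectin pair, fell by 44.4 points (20 to 9 tags) and PRTN3, a granule protease, by 19.9 (15 to 9). The S100A9 region was weak in the other lines, at the 4.9 and 5 percentile in DMSO and without a peak in Tm. Gained regions around these genes were 6.55% of 290 (4.23 to 10), below the 11% of all genes, and lost ones 20.7%, against 24.7%. A lost promoter region was at 10 of the 28, namely ELANE, PRTN3, LYZ, CSF1R, ITGAM, CD33, FCGR1A, NCF1, KLF4 and IRF8, and a gained one at S100A9, CD33, IRF8 and GFI1. These were 35.7% and 14.3% of the list, against 24.8% and 15.3% of all genes.

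AP-1, C/EBP and inflammatory genes moved in small numbers. Promoters risen by 10 points or more were 17.6%, 11.1% and 10.3% of those ranked in the 3 lists, against 7.98% of all genes. Of 17 AP-1 genes, JUNB rose by 17.5 points (39 to 45 tags), FOSL1 by 13.9 (28 to 32) and BATF by 13.8 (22 to 26), and 0 fell by 10 points or more. JUNB went from the 72.6 to the 62.6 percentile in p30 cells and from 53.7 to 72.4 in EV cells. Of 9 genes of C/EBP and related bZIP factors, CEBPA rose by 12.8 (43 to 44) and NFIL3 fell by 12.7 (35 to 26). The CEBPA locus and the transduced CEBPA cannot be told apart where reads fall in the coding sequence. Of 29 inflammatory genes, IL1B rose by 22.6 (25 to 32 tags), CCL5 by 16.7 (7 to 8) and CD14 by 10.1 (22 to 22), and CCL3 fell by 18.2 (30 to 18). CCL3 moved the other way in p30 cells, from the 63.8 to the 82.3 percentile, and in EV cells, from 59.5 to 70.3.

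Gained promoter regions were at 17.6% of AP-1, 0% of C/EBP and 13.3% of inflammatory genes, against 15.3% of all genes, and lost ones at 17.6%, 22.2% and 20%, against 24.8%. Gained ones lay at FOSL1, JUN and ATF3 among AP-1 genes and at CCL2, PTGS2, SOD2 and IER3 among inflammatory genes. Lost ones lay at JUN, JUNB and MAFF, at CEBPE and NFIL3, and at IL12B, TNFAIP3, ICAM1, NFKB1, NFKB2 and EGR1.

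Of 20 death and BCL2 family genes, 2 rose (10%) and 0 fell by 10 points or more, against 7.98% and 7.2% of all genes. TNFRSF10B, the death receptor DR5, rose by 18.4 points (32 to 42 tags), and from the 72.8 to the 87.1 percentile in p30 cells and from 64.5 to 77.8 in EV cells. BAX, the pore-forming death effector, rose by 14.5 points (25 to 28 tags). In p30 and EV cells BAX was at the 90.9 and 85.4 percentile in DMSO and at 90.1 and 80.3 in Tm. Gained promoter regions were at BBC3, TNFRSF10B, CASP4 and XIAP and lost ones at BCL2L11, TNFRSF10A, CASP4 and CASP8, 20% of the list in each case.

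Of 30 cell cycle genes, E2F2 rose by 15.1 points (33 to 38 tags), RRM2, the small subunit of ribonucleotide reductase, by 11.5 (50 to 54) and CCND2 by 10.1 (33 to 33). TYMS, the thymidylate synthase gene, fell by 10.1 (37 to 29). These were 10% risen and 3.33% fallen, against 7.98% and 7.2% of all genes. The median shift of the list was −0.40 points. Gained promoter regions were at CCND3, CDK6, CDC6, MCM3, RRM2 and MKI67 and lost ones at CCND1, CCNE1, CCNE2, CDK2, MCM4, AURKA and AURKB, or 20% and 23.3% of the list.

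**Figure D5:**
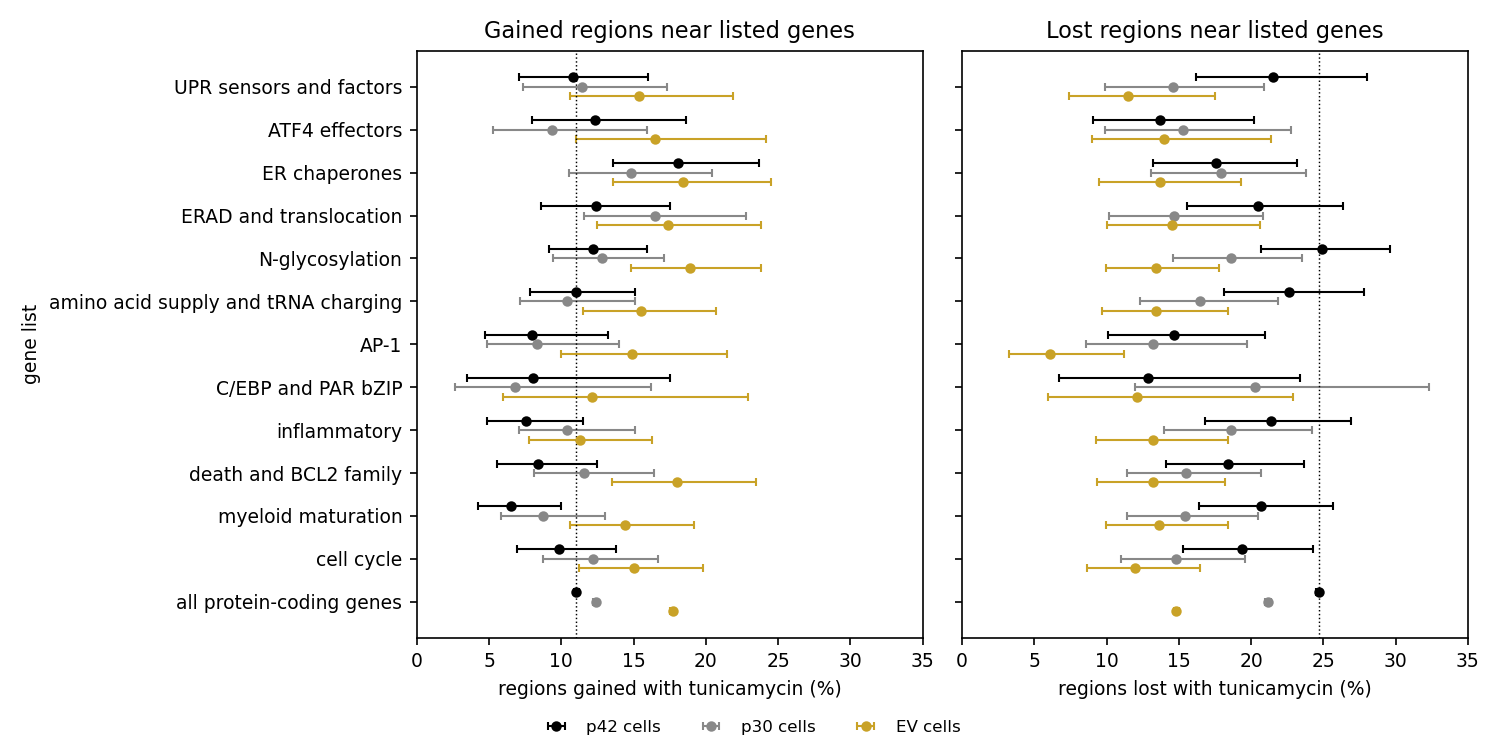
Share of regions gained (left) and lost (right) with Tm within each listed gene and 10 kb on each side, in percent, for p42, p30 and EV cells; points are shares, bars 95% Wilson intervals, and the dotted line is the p42 share around all protein-coding genes. The ER chaperone list had the highest gained share of the lists in p42 cells, 18.1% against 11% around all genes, and myeloid maturation the lowest, 6.55%.

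Some genes held clusters of change. Among 2625 protein-coding genes with at least 20 regions within the gene and 10 kb on each side, the median gene had 11.5% of its regions gained and 26.3% lost. The highest gained shares were at EBF2 (39.1% of 23 regions), GLI2 (38.7% of 31), NMNAT2 (36.4% of 22), SOBP (36.4% of 22) and FAT3 (35.7% of 28). GLI2 and EBF2 are developmental transcription factor genes. The highest lost shares were at RHBDD1 (60.9% of 23), GRIA1 (60% of 20), TACC2 (60% of 30), CCDC30 (59.3% of 27) and ADAM32 (57.1% of 21). With few regions a gene, these shares rest on 8 to 18 regions each, and the genes are the ends of an ordered list.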

How the data were processed

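ATAC-seq peak lists of KO-52 p42 cells in DMSO and Tm were used, 1 list per condition, each called by the authors on 2 pooled replicates. Per the labels and the study's methods, reads were trimmed with Trim Galore 0.6.6, aligned to hg38 with Bowtie2 2.4.4, freed of duplicates with Picard and passed to MACS2. The methods head this pipeline with both assays and word it for ChIP-seq reads. Whether read ends were offset for Tn5 insertion, or mitochondrial alignments dropped, is not given in the sources used here; such an offset is small beside the window searched around each summit. The deposited values of each peak are a fold enrichment (a ratio of summit pileup to local background), a −log10 p and a −log10 q, a display score and the summit's distance from the peak start. The authors did not normalise these between conditions, so they served to rank peaks within a list. Tags at the summit were solved from the deposited fold and −log10 p, and were whole numbers for 100% of peaks. Depth was estimated from the lowest background and ranged from 22250000 to 29980000 tags over the 6 lists.

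Peaks were merged at 1 bp overlap and annotated with GENCODE 44. Percentiles use the −log10 p of a region's strongest peak, with mid-ranks for ties. A total of 24 elements were searched by exact match on both strands within 100 bp of the summit, and several share bases. They were CEBP TTGCNCAA, CEBP:AP1 TGTTGCAA, ATF4 TGATGCAA, AP-1 TGANTCA, CRE TGACGTCA, XBP1/ATF6 TGACGTGG, ERSE (CCAAT and CCACG separated by 9 bases), MAF/NRF2 TGACNNNGC, NF-kB GGANTTTCC, ISRE GAAANNGAA, RUNX TGTGGTT, the GATA family (AGATAAG), PU.1 GAGGAAGT, ETS CCGGAAGT, HOX/MEIS TGATTNAT, MYB AACTGNC, E-box CACGTG, SP1 GGGCGGGG, NF-Y CCAATNAG, NRF1 GCGCATGCG, YY1 AAGATGGCG, E2F TTNGCGC, HSF GAANNTTC and CTCF AGNGGGCGC. Elements not described in the text are left out there.

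The regions named were the 8 strongest gained and lost regions and the 8 largest rises and falls in rank, the listed genes with a gained or lost promoter region or a shift of at least 10 points, and the 5 genes with the highest gained and lost shares. Regions with the ATF4 or CEBP element and the HSPA5, HERPUD1, SDF2L1, TRIB3 and GANAB loci were added after values were seen. The members and the 12 gene lists were chosen with earlier results of these data known. Shares have 95% Wilson intervals. Alternatives were list size, thresholds, overlap, depth scaling, promoter width, element window and ranking by fold. The code recovered 100% of 5000 simulated peaks' tags and 100% of the classes of 5200 simulated regions. Python 3.11.15, numpy 2.4.6, pandas 2.3.3 and scipy 1.17.1 were used.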

Additional observations from a re-analysis of the deposited data

Results flagged for a closer look

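The net change in regions with Tm was −17.5% in p42 cells and 4.05% in EV cells, opposite in direction. The difference was not tested, since each line had 1 pooled list per condition, and depth moved with it, from an estimated 29980000 to 25440000 tags in p42 cells and from 22250000 to 25130000 in EV cells.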

How the results depend on the processing

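Of the 59 values recomputed under alternatives, 30 stayed within their interval or within 1.5 times the count, and among them the median shift of shared regions with the ATF4 element, 0.02 points (−0.74 to 0.87), turned to −0.54 among regions with a −log10 q of 10 or more in both lists and to −0.09 with equal numbers, so its sign was not set. Counts followed list size and strength: with the 100000 strongest peaks of each list 13336 regions were gained and 16017 lost, with the 50000 strongest 7365 and 7817, and at a −log10 q of 10 or more 95 and 632. The net change was −5.24% with equal numbers, −2.69% and −0.90% with the 100000 and 50000 strongest, −0.61% at a −log10 q of 10, −16.80% at 2, −18.32% with peaks up to 150 bp apart merged, −14.79% with a depth-scaled threshold and −16.98% at 50% overlap. The promoter share of gained and lost regions was 8.15% and 7.19% at 500 bp, 18.9% and 17.2% at 2000 bp, 12.7% and 11.9% with equal numbers, and 17.9% and 10.9% at a −log10 q of 10. The ATF4 share of all gained and lost regions was 1.02% and 0.81% within 50 bp of the summit, and 2.03% and 1.74% within 150 bp. Among strong gained regions it was 4.29% (23 of 536) at a −log10 q of 8 and 22.9% (8 of 35) at 12. These shares, and the one at 10, were computed after seeing the data. The median shift of shared promoters was 1.29 points when ranked by fold. Wider windows and promoters hold more by construction. With the same number of peaks in both lists, the net change arises only from how many peaks merged into a region. The cause of the other changes was not tested. No paired analysis was possible because the lists pool the replicates, which also left no replicate to leave out. Depth limits weak regions, and a missing peak does not show closed chromatin.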
